A study of Gossypium hirsutum with 9 samples.

Results

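On the 28K cotton cDNA array, 49 probes differed at least 2-fold between ovules of the lines XinWX and XinFLM at each of -1, 0 and 1 days post anthesis (DPA), always toward the same line. Of these, 28 gave more signal in XinWX and 21 gave more in XinFLM. They were chosen by the authors' log2 ratios, turned to XinWX over XinFLM on every array. A probe had to reach 400 scanner units after background subtraction in at least 1 channel on all 9 arrays, and its mean over the 3 arrays of a stage had to be 1 or more at all 3 stages, or -1 or less at all 3. The intensity limit kept 18150 of the 29183 different probes, and 18146 of them had a ratio on all 9 arrays. The 18 probes named in the quantitative PCR plots of the study were left out by rule, although 0 of them met the limit on the ratios. Because the ratios chose the probes, the differences between the lines are given below as a description, with no test.

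XinWX and XinFLM are isogenic lines of cotton, Gossypium hirsutum. XinWX, the lintless-fuzzless mutant, forms neither lint nor fuzz, and XinFLM, the linted-fuzzless mutant, forms lint but no fuzz, so that both lines lack fuzz. RNA came from ovules with their fibers, taken from field-grown plants on the day before, the day of and the day after anthesis. Each array held both lines at the same stage, XinWX in Cy3 and XinFLM in Cy5 on replicates 1 and 3, and with the dyes interchanged on replicate 2. In such mixtures, fewer cells of a type and less RNA per cell cannot be told apart.

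Cotton fibers are single cells that grow out of the outer epidermis of the ovule. Lint fibers start to protrude around the day of anthesis and become the long fibers that are spun, whereas fuzz fibers start later and stay short on the seed. The files used here do not pair these probes with genes, and the reference table used here holds gene names but no probe names. The probes are for this reason given by their array ID, which holds a plate number and a well, and no gene, sequence or role is attached to them. The labelled tissue was not checked against marker genes for the same reason.

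Spots under 400 units in both channels made up 18.2% to 29.6% of each array. The median intensity per channel lay between 694 and 1664 units, and both extremes were on replicate 3 of 1 DPA, with XinFLM at the lower and XinWX at the higher value. By the methods the 3 arrays of a stage come from 2 biological replicates and a dye swap, so that the spread between them, and each p-value below, may be technical in part. Which arrays share RNA is not stated. Where replicate 1 and the swapped array are averaged below, their pairing is an assumption, and that fit also has fewer samples.

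The direction of the 49 probes was the same on every array. All 441 single-array ratios had the sign of the stage means of their probe, the dye-swapped arrays included, and 400 of them were of size 1 or more. The rule used the means of these same ratios, which favours such values, so nothing is read from this sameness. In 22 probes, 9 higher in XinWX and 13 higher in XinFLM, all 9 arrays passed that size. The 41 smaller values were spread over 19 probes higher in XinWX and 8 higher in XinFLM. The smallest of all was 0.0067, for 28K_288_E03 on replicate 3 of 1 DPA, a probe singled out after its values were seen.

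**Figure D1:**
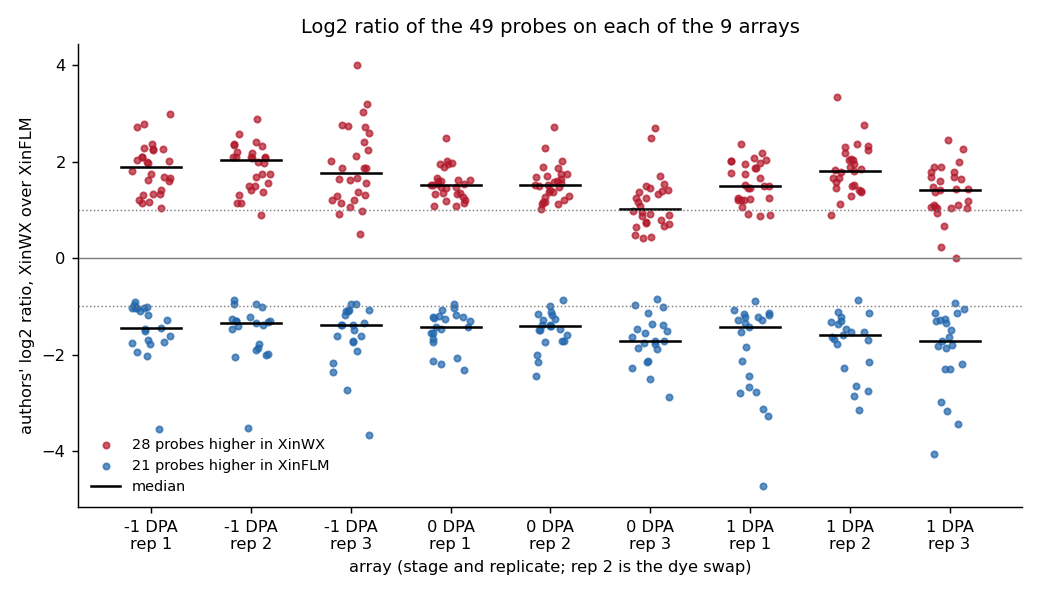
Log2 ratio of XinWX over XinFLM (vertical axis) of each of the 49 probes on each of the 9 arrays (horizontal axis), with 1 point per probe, red for the 28 probes higher in XinWX and blue for the 21 higher in XinFLM. Black bars are medians, dotted lines mark log2 ratios of 1 and -1, and all 441 points lie on the side of their line, with the median of the red points lowest, at 1.03, on replicate 3 of 0 DPA.

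Differences of this size were more often found at 1 or 2 stages than at all 3. Toward XinWX, 591 probes reached a mean log2 ratio of 1 at exactly 1 stage, 165 at exactly 2 stages and 28 at all 3. Toward XinFLM the numbers were 549, 131 and 21, and 0 probes reached the limit at all 3 stages with mixed directions. Of all probes with ratios, 2.44% were past the limit toward XinWX at -1 DPA, 0.496% at 0 DPA and 2.61% at 1 DPA, and 0.154% at all 3 stages. Toward XinFLM the shares were 1.47%, 1.11% and 2.23%, and 0.116% at all 3. These shares describe the rule and nothing is read from them.

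Among the 28 probes higher in XinWX the ratio was in most cases largest before anthesis. The median of their stage means was 1.91 at -1 DPA, 1.34 at 0 DPA and 1.49 at 1 DPA. The largest of the 3 stage means fell at -1 DPA in 17 probes, at 0 DPA in 3 and at 1 DPA in 8, and the smallest fell at 0 DPA in 18. A difference of 4-fold or more was seen in 13 of them at -1 DPA, in 2 at 0 DPA and in 4 at 1 DPA. The low value at 0 DPA rested in part on 1 array. The medians of the 28 probes were 1.51 and 1.52 on replicates 1 and 2 of 0 DPA, but 1.03 on replicate 3, which held all 14 of the 0 DPA values under 1. The order of the later stages also depended on the scaling of the arrays: with arrays scaled to the same spread of log2 ratios, the medians were 1.85, 1.72 and 1.26 at -1, 0 and 1 DPA.

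Among the 21 probes higher in XinFLM the median hardly moved, with -1.40 at -1 DPA, -1.50 at 0 DPA and -1.45 at 1 DPA. The single probes did move, and 11 of them had their largest difference at 1 DPA, against 7 at -1 DPA and 3 at 0 DPA. Differences of 4-fold or more rose in number from 2 at -1 DPA to 4 at 0 DPA and 8 at 1 DPA. With arrays scaled to the same spread the medians were -1.37, -1.91 and -1.21. As in the other group, replicate 3 of 0 DPA lay toward XinFLM, with a median of -1.72 against -1.42 and -1.41 on replicates 1 and 2.

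**Figure D2:**
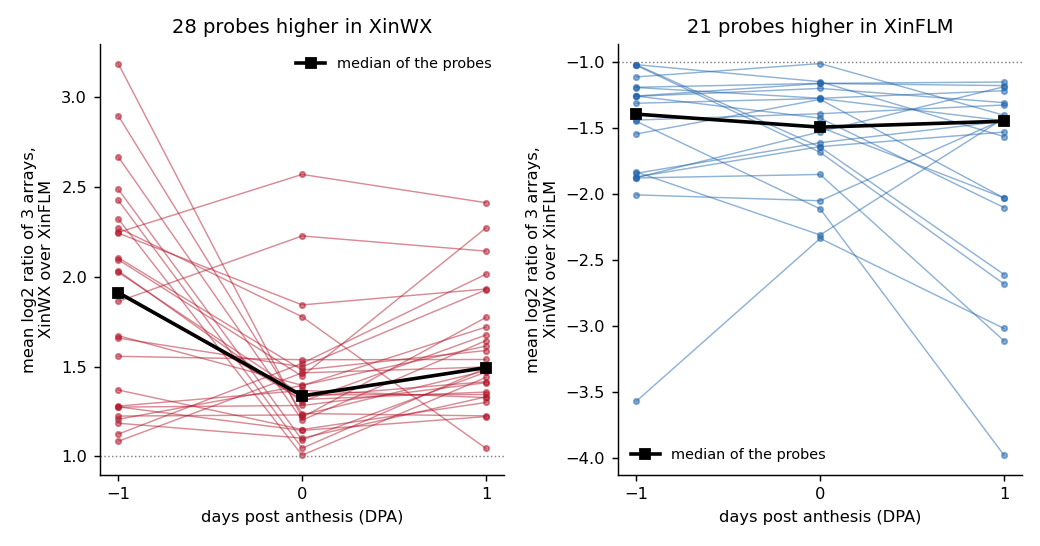
Mean log2 ratio of XinWX over XinFLM of 3 arrays (vertical axes, of different length) against DPA (horizontal axes), with 1 thin line for each of the 28 probes higher in XinWX (left, red) and the 21 higher in XinFLM (right, blue). The black squares are medians over the probes, 1.91, 1.34 and 1.49 on the left and -1.40, -1.50 and -1.45 on the right, and the dotted lines mark the limit of 1 or -1.

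How even a difference was across the stages varied among the probes. The range between the largest and the smallest stage mean had a median of 0.54 in the probes higher in XinWX and 0.62 in those higher in XinFLM, beside 0.41 over all probes with ratios. It was under 0.5 in 13 and 9 probes, and 1 or more in 7 and 5. The evenest probe was 28K_048_E02, with stage means of 1.56, 1.54 and 1.54. The least even was 28K_221_C07, which went from -1.45 at -1 DPA to -2.11 at 0 DPA and -3.98 at 1 DPA. Both were singled out after their values were seen.

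The probe with the largest difference toward XinWX at its weakest stage was 28K_139_C03. Its log2 ratios were 2.23, 2.09 and 2.42 on replicates 1 to 3 of -1 DPA, 2.49, 2.73 and 2.50 at 0 DPA, and 2.02, 2.77 and 2.45 at 1 DPA. By these ratios no array gave less than a 4-fold difference, and the stages overlapped. The stage means corresponded to 4.75-fold (log2 2.25, SD 0.16, n = 3 arrays), 5.94-fold (2.57, SD 0.13) and 5.33-fold (2.41, SD 0.38). Its normalized log2 intensity in XinWX was 11.03, 11.46 and 10.71 at the 3 stages, and in XinFLM it was 9.07, 9.15 and 8.80. These levels gave smaller mean differences, log2 1.96, 2.32 and 1.91, which are under 4-fold at -1 and 1 DPA. At 1 DPA no array showed a XinFLM signal of 400 units, with 272.5, 260.0 and 181.5 units, so that the difference of levels there is a lower bound, at least 3.11-fold.

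28K_236_E03 was the other leading probe of XinWX. It had log2 ratios of 1.74, 1.98 and 1.87 at -1 DPA, 1.96, 2.02 and 2.70 at 0 DPA, and 2.18, 2.37 and 1.88 at 1 DPA. The value of 2.70 came from replicate 3 of 0 DPA, the array with the lowest median of this group. The stage means were 3.64-fold, 4.69-fold and 4.42-fold (SD of the log2 ratio 0.12, 0.41 and 0.25).

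The probe with the largest difference toward XinFLM at its weakest stage was 28K_094_F09. Its log2 ratios were -3.54, -3.51 and -3.66 at -1 DPA, -2.07, -2.44 and -2.50 at 0 DPA, and -3.13, -2.75 and -3.18 at 1 DPA. All 3 arrays of 0 DPA lay closer to 0 than any array of the other stages. The stage means were 11.9-fold (SD of the log2 ratio 0.08), 5.06-fold (SD 0.24) and 8.11-fold (SD 0.23). It was also the brightest of the probes higher in XinFLM, with 11069 to 25295 units in XinFLM and 1580 to 4470 units in XinWX, so that both lines were well over the limit of 400 units on every array.

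28K_104_C04 followed in the same direction. Its log2 ratios were -2.04, -1.98 and -1.62 at -1 DPA, -2.13, -1.71 and -1.72 at 0 DPA, and -3.27, -2.64 and -3.43 at 1 DPA. The 3 arrays of 1 DPA lay below all others. The stage means were 3.68-fold, 3.62-fold and 8.65-fold (SD 0.23, 0.24 and 0.42).

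**Figure D3:**
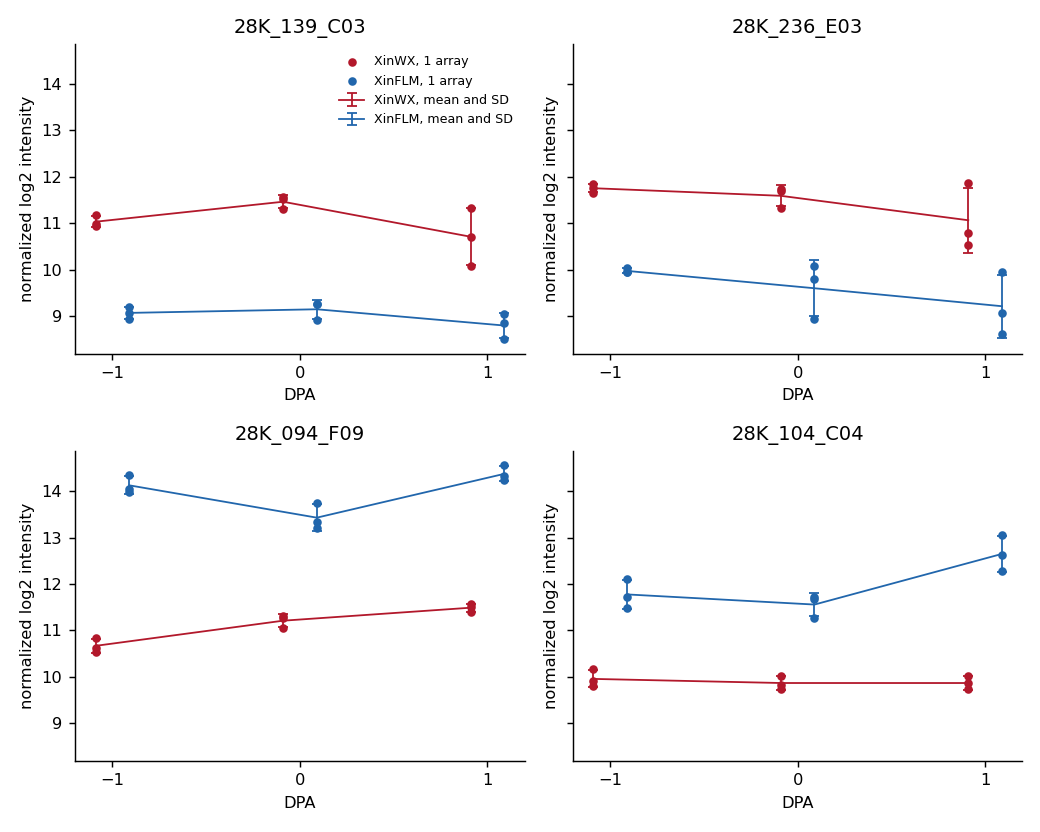
Normalized log2 intensity (vertical axes) against DPA (horizontal axes) of the 2 probes with the largest smallest stage mean in each direction, XinWX in red and XinFLM in blue. Points are single arrays, lines join the means and bars are the SD over 3 arrays, and the levels of the lines do not overlap at any stage of these 4 probes.

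The brightest of the probes higher in XinWX was 28K_119_C07. It gave 17541.5 to 51978 units in XinWX and 5005 to 18021.5 units in XinFLM. Its log2 ratio was 1.67 on each of the 3 arrays of -1 DPA, 1.62, 1.61 and 0.96 at 0 DPA, and 1.95, 1.85 and 1.04 at 1 DPA. Replicate 3 was lowest at both later stages.

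28K_221_C07 had the widest range of the 49 probes. Its log2 ratios were -1.94, -1.47 and -0.95 at -1 DPA, -2.19, -1.9999 and -2.16 at 0 DPA, and -4.73, -3.15 and -4.06 at 1 DPA. The stages did not overlap. No array of 1 DPA reached 400 units in XinWX, with 118.5, 273.5 and 369.5 units, beside 3082.5, 2169 and 2509 units in XinFLM. The difference there is therefore given as at least 8.87-fold, while the mean ratio of the authors corresponds to 15.8-fold.

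Probes close to the limit were not marked off from those that missed it. Just inside were 28K_185_G04, with stage means of 2.32, 1.01 and 1.44, and 28K_223_E07, with -1.12, -1.02 and -1.41. Just outside were 28K_273_A02, with 0.9998, 1.01 and 1.15, and 28K_132_F10, with -0.985, -1.30 and -2.36. The SD over 3 arrays of these stage means ran from 0.06 to 0.73, which is more than the distance of any of the 4 probes from the limit at their weakest stage.

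The weaker line was often near the limit of detection. On 72 of the 441 spots it was under 400 units, in 24 probes on at least 1 array, and in 0 probes on all 9. In 10 cases, of 9 probes, no array of a stage reached 400 units in it, and the bounds of the fold there ran from 1.38 to 8.87. The normalized levels of the lines overlapped between the arrays of a stage in 4 probes at -1 DPA, 5 at 0 DPA and 8 at 1 DPA. The ratio within every array kept its direction, but these ratios chose the probes, so this does not bear on the overlap.

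Beyond the limit of 400 units in 1 channel, which sets a lower end, the levels of the probes were spread widely. The mean level over both lines had a median of 10.88 on the log2 scale, beside 11.13 for all 18150 probes over the intensity limit, and ran from 9.14 to 13.94. Of the 49 probes, 20 were above that median of all probes, 17 were under the first quartile and 6 were above the third quartile. The lowest scanner flag marked 5.90% of their spots, beside 6.57% over all. The probes came from 44 of 304 plates and lay in 30 of the 48 print blocks, with at most 4 in 1 block. On 5 plates 2 of the probes stood together, and the pair was higher in the same line on 3 of these plates and in different lines on 2.

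The rule took no change over time within a line, and these changes were tested. Since the levels of both lines enter the ratios and the intensity limit, they are not fully independent of the rule, and counts and medians over the 49 probes are a description. Both channels were fitted together over all probes with limma's separate-channel analysis, and a change was called where it was 2-fold or more and its p, adjusted for the false discovery rate (FDR), was under 0.05. All 49 probes were tested at every step. Of them, 9 were called in at least 1 of the 6 changes, and 40 in none. The share of all probes called in at least 1 of the 6 was not counted, so nothing is read from the 9.

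In XinFLM, 4 of the 49 probes were called between -1 and 1 DPA, 3 higher and 1 lower at 1 DPA. Over all 21229 probes tested 9.81% were called, 4.59% higher and 5.22% lower, so that 4 of 49 was no more than the background share. 28K_158_G09 rose most. Its XinFLM level was 9.32, 9.03 and 10.50 on the arrays of -1 DPA and 12.12, 11.61 and 11.93 at 1 DPA, with no overlap, a rise of 4.82-fold (log2 2.27, standard error 0.34, adjusted p = 0.000417). 28K_130_F01 was close behind, from 9.75, 9.85 and 9.93 to 12.12, 12.13 and 12.07 (4.81-fold, log2 2.27, standard error 0.31, adjusted p = 0.000182). The call of both rises was kept in all 17 alternative settings.

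Both of these probes were among those higher in XinFLM, and both had their largest ratio at 1 DPA. In XinWX their log2 changes between -1 and 1 DPA were 0.79 for 28K_158_G09 and 0.67 for 28K_130_F01, and neither passed the test there. Their mean XinWX levels at -1 DPA were low, 8.71 and 8.91. The lowest XinWX levels among probes of at least 400 units were 8.37 to 8.76 on these arrays, so the sizes of the XinWX changes are uncertain. The third rise was that of 28K_083_F05, which is higher in XinWX (XinFLM log2 1.86, standard error 0.35, adjusted p = 0.00250). Its XinFLM signal at -1 DPA was 477, 279 and 335 units, under the limit of 400 on 2 of 3 arrays, where it passed the filter through XinWX, so that the size of its rise is uncertain. The fall was that of 28K_243_F02, also higher in XinWX, from 10.999, 11.18 and 11.51 to 10.28, 9.61 and 9.91 (2.45-fold, log2 -1.29, standard error 0.26, adjusted p = 0.00439). These last changes did not pass when the swapped array and replicate 1 were averaged (adjusted p = 0.0763 and 0.0727). 28K_083_F05 was named after its values were seen.

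Between -1 and 0 DPA, 4 probes rose in XinFLM and 0 fell, beside 0.612% that rose, 0.189% that fell and 0.801% in all of the 22227 probes tested. Of the 4, 3 were higher in XinWX. The larger rises were those of 28K_256_D01 and 28K_083_F05, chosen after the values were seen. 28K_256_D01 had XinFLM levels of 10.49, 10.33 and 10.08 at -1 DPA and 12.46, 12.81 and 12.98 at 0 DPA, a rise of 5.47-fold (log2 2.45, standard error 0.44, adjusted p = 0.0155). In XinWX the same probe stood at 13.39, 12.85 and 13.90 and then at 14.04, 14.38 and 13.37, where the arrays overlapped. The ratio between the lines was log2 2.99, 2.57 and 4.002 at -1 DPA and 1.62, 1.58 and 0.45 at 0 DPA. 28K_083_F05 rose by log2 2.14 (standard error 0.35, adjusted p = 0.00974), from the same faint signal at -1 DPA. 28K_191_H01, another of the 4, was also under 400 units in XinFLM on 2 of the 3 arrays of -1 DPA, with 466, 385 and 384 units.

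These -1 to 0 DPA calls were fragile. None of the 4 was called when the swapped array and replicate 1 were averaged, or without -1 DPA replicate 1 or 2 or 0 DPA replicate 2 or 3.

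Between 0 and 1 DPA, 2 probes rose and 2 fell in XinFLM, beside 1.03% and 1.74%, or 2.77% in all, of the 21071 probes tested. Both rises were of probes higher in XinFLM, 28K_158_G09 (log2 1.35, standard error 0.34, adjusted p = 0.0406) and 28K_104_C04 (log2 1.09, standard error 0.27, adjusted p = 0.0365). Both falls were of probes higher in XinWX. 28K_256_D01 went back from 12.46, 12.81 and 12.98 to 10.33, 10.13 and 9.99, a fall of 6.05-fold (log2 -2.60, standard error 0.44, adjusted p = 0.00514). 28K_243_F02 fell 2.72-fold (log2 -1.44, standard error 0.26, adjusted p = 0.0086). In XinWX both of these probes fell as well, with all arrays of 1 DPA lower, but neither was called. The XinWX falls were log2 -2.19 for 28K_256_D01 (adjusted p = 0.0621) and -1.18 for 28K_243_F02 (adjusted p = 0.0727). Of the calls in XinFLM, the rises were lost in 13 and 11 of the 17 alternative settings, and the falls in 1 and 3. Averaging the swapped array with replicate 1, an assumed pairing, leaves 2 samples a stage, the number of biological replicates in the methods. This average lost all 4 calls, the falls with adjusted p = 0.198 for 28K_256_D01 and 0.275 for 28K_243_F02. 28K_256_D01 and 28K_104_C04 were named at this step after their values were seen.

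In XinWX, 3 probes were called between -1 and 1 DPA, all of them lower at 1 DPA and all higher in XinWX, beside 1.1% that fell, 0.834% that rose and 1.93% in all of the probes tested. 28K_181_A01 fell most. Its XinWX level was 12.26, 12.32 and 12.79 at -1 DPA and 10.46, 10.46 and 11.58 at 1 DPA, with no overlap, a fall of 3.09-fold (log2 -1.63, standard error 0.31, adjusted p = 0.0154). 28K_214_C02 went from 11.34, 11.26 and 11.38 to 9.85, 10.20 and 9.77 (2.62-fold, log2 -1.39, standard error 0.27, adjusted p = 0.0168). The third was 28K_243_F02 (log2 -1.21, standard error 0.26, adjusted p = 0.0318), the only probe called in both lines. 28K_256_D01, named here after its values were seen, fell slightly more than 28K_181_A01 but was not called (log2 -1.64, adjusted p = 0.0650).

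The XinWX falls depended on the arrays. None of the 3 was called without any single array of -1 DPA, or when the swapped array and replicate 1 were averaged (adjusted p = 0.451, 0.420 and 0.447 for 28K_181_A01, 28K_214_C02 and 28K_243_F02). Without replicate 3 of 1 DPA, the array with the widest gap between the channels, 9 probes were called in XinWX and 8 in XinFLM, with the shares of all probes not counted. The part of that gap in the result was not tested.

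Between -1 and 0 DPA, 0 of the 49 probes were called in XinWX, beside 0.292% that rose, 0.216% that fell and 0.508% in all of those tested. An unadjusted p under 0.05 in limma was seen in 6 of the 49, and the share of all probes with such a p was not counted. Between 0 and 1 DPA 1 probe was called in XinWX, a fall, beside 0.133% that fell, 0.00949% that rose and 0.142% in all. This was 28K_214_C02, which stood at 11.65, 11.80 and 11.25 at 0 DPA before it fell (log2 -1.63, standard error 0.27, adjusted p = 0.0182). The call was lost in 11 of the 17 alternative settings. Its log2 ratio, which takes in the same XinWX signal, was 1.94, 1.89 and 1.496 at 0 DPA and 1.06, 1.39 and 0.68 at 1 DPA.

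**Figure D4:**
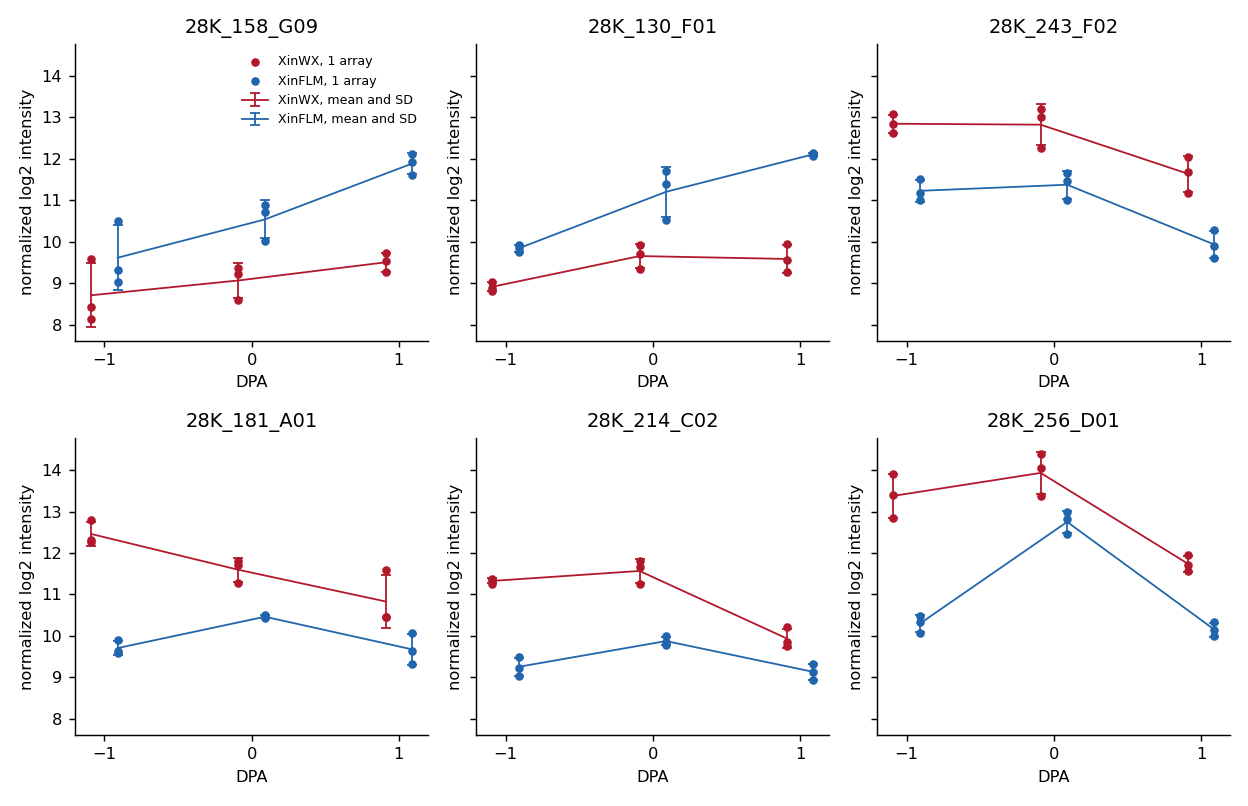
Normalized log2 intensity (vertical axes) against DPA (horizontal axes) of the 5 probes named for their change between -1 and 1 DPA and of 28K_256_D01, XinWX in red and XinFLM in blue. Points are single arrays, lines join the means and bars are the SD over 3 arrays, and the XinFLM means of 28K_256_D01 are 10.30, 12.75 and 10.15, with the highest at 0 DPA. Its XinWX means are 13.38, 13.93 and 11.74.

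Set side by side, the changes of the lines between -1 and 1 DPA had the same sign in 36 probes and opposite signs in 13. Of the 49, 1 was called in both lines, 3 in XinFLM alone, 2 in XinWX alone and 43 in neither. Over all 21229 probes tested, 9.81% were called in XinFLM and 1.93% in XinWX. Equal signs and calls in both lines were not counted over all probes, so these numbers are a description only. A call in 1 line alone does not show that the lines differ, and the difference of the changes was not tested, since it is a difference of the ratios that chose the probes. In the 28 probes higher in XinWX the median change was -0.23 in XinFLM and -0.50 in XinWX, and in the 21 probes higher in XinFLM it was 0.21 and 0.08. Over all probes tested the medians were 0.00048 in XinFLM and -0.019 in XinWX.

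**Figure D5:**
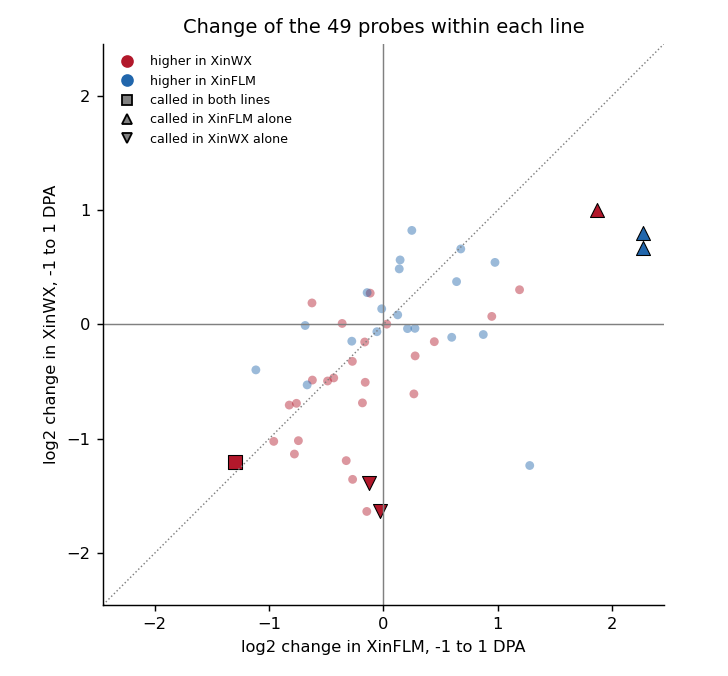
Log2 change between -1 and 1 DPA in XinFLM (horizontal axis) and in XinWX (vertical axis) of the 49 probes, red for those higher in XinWX and blue for those higher in XinFLM. Large outlined symbols are the 6 probes called in at least 1 line, and the dotted line marks equal change, near which 28K_243_F02, the square at -1.29 and -1.21, lies.

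The level of 28K_221_C07 could not be followed with the same precision. On replicate 2 of -1 DPA the mean over the pixels of its spot was 6.28 times the median in the XinWX channel and 2.58 times the median in the XinFLM channel, whereas the median of this quotient over all spots of the 49 probes was 0.993. The fit uses the means, and from -1 to 1 DPA they gave a XinFLM change of log2 1.28 with a standard error of 0.66 (adjusted p = 0.218). With spot medians in place of means, a setting chosen after seeing the data, it was log2 1.75 (standard error 0.36, adjusted p = 0.00445).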

How the data were processed

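The deposited scanner files hold spot and local background intensities in both channels, as the authors' scanner software gave them, with no normalization. The deposited table gives each array's Cy5 over Cy3 ratio as log2, which the authors normalized by LOWESS within and Aquantile across arrays. By their methods, spots under 400 units were removed first. Without the intensity limit used here, 32 probes toward XinWX and 30 toward XinFLM met the ratio limit, so the table holds ratios for some spots under it. R 2.12.2 and limma 3.4.5 are named in the submitters' processing notes. The array medians of this table lay between -0.0092 and 0.0082, and each array correlated with its own scanner ratio at r = 0.933 to 0.999. Centring and direction follow from these values. A correlation does not fix the scale, which is taken as log2 as given. The scanner flags, deposited as another number, were used only in an alternative.

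All ratios were given the direction XinWX over XinFLM. To follow each line over time, spot means were background-corrected by normexp (offset 50), normalized by loess (span 0.3, 4 iterations, faint and control spots at weight 0) and Aquantile, and fitted with lmscFit (R 4.3.3, limma 3.58.1, statmod 1.5.0) (intraspot correlation 0.756). A probe was tested where, at both stages, 2 or more of the 3 arrays had 400 units in 1 channel, and p-values were adjusted by Benjamini-Hochberg over them. The fit, but not the normalization, was run on simulated data with independent arrays, the same spread for all probes and changes in XinFLM alone. That setting does not cover arrays that share RNA. A level under 400 units on all 3 arrays of a stage was treated as a bound, with the lowest normalized level among probes of at least 400 units, or the probe's own where higher, on each array. The spots of a probe printed more than once were averaged. The number of arrays limits the precision.

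The probes, the rule and the alternatives were chosen with earlier results of these data known. Named probes are, in each direction, those with the 2 largest smallest stage means, the brightest, those just inside and outside the limit, and the 2 largest called rises and falls per line from -1 to 1 DPA. Same-numbered arrays of -1 and 0 DPA deviated together in both lines (r = 0.103 to 0.406 in XinWX and 0.108 to 0.367 in XinFLM), and those of the other stages did not. The pairing rests on the data alone and is weak for replicate 1, which correlated more with an array of another number (r = 0.334 in XinWX and 0.338 in XinFLM).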

Additional observations from a re-analysis of the deposited data

Results flagged for a closer look

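In 2 probes all arrays of 0 DPA lay above all arrays of -1 DPA in 1 line and below them in the other. 28K_094_F09, higher in XinFLM, had a log2 change of 0.54 in XinWX and of -0.70 in XinFLM, a difference of 1.24. 28K_181_A01, higher in XinWX, had a log2 change of -0.86 in XinWX and of 0.76 in XinFLM, a difference of -1.62. None of these 4 changes was called, and the differences were not tested.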

How the results depend on the processing

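Under other choices for the rule, between 19 and 37 probes were higher in XinWX and between 13 and 30 in XinFLM. These were not always the same probes. Of the 28 higher in XinWX and the 21 higher in XinFLM, 23 and 16 stayed with normexp and loess ratios. Without probes that had the lowest scanner flag, 19 and 13 stayed. Scaled arrays kept 26 and 15, and an average of the swapped array and replicate 1 kept 24 and 21. All 28 and 21 stayed with no intensity minimum. The count for XinFLM moved by over 1.5 times only where probes with the lowest scanner flag on any array were left out (13). Leaving out 1 array gave 26 to 32 and 17 to 24 probes. Every median ratio kept its sign. For the probes higher in XinWX it was 1.77 at -1 DPA with normexp and loess ratios, 1.72 at 0 DPA and 1.26 at 1 DPA with scaled arrays, and 1.81 at 1 DPA on the swapped array alone. For those higher in XinFLM it was -1.25 at -1 DPA and -1.28 at 0 DPA with normexp and loess ratios, -1.33 at -1 DPA with replicate 1 and the swapped array averaged or on the straight arrays alone, and -1.91 at 0 DPA and -1.21 at 1 DPA with scaled arrays. Leaving out 1 array gave medians of 1.83 to 1.99, 1.22 to 1.48 and 1.45 to 1.70 at -1, 0 and 1 DPA for the probes higher in XinWX, the last without replicate 3 of 1 DPA, and of -1.38 to -1.33, -1.59 to -1.39 and -1.58 to -1.47 for those higher in XinFLM.

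The counts of changes within a line were small and moved easily. The shares of all probes called under the other settings were not counted. With replicate 1 and the swapped array averaged, 2 probes were called in XinFLM from -1 to 1 DPA, and 0 in XinFLM from -1 to 0 and from 0 to 1 DPA and in XinWX from -1 to 1 and from 0 to 1 DPA. With no minimum fold change 7 were called in XinFLM from -1 to 1 DPA. With all probes tested and faint spots at full weight in the loess fit, changed together, 2 were called in XinFLM from -1 to 0 DPA. In XinFLM from 0 to 1 DPA the count was 2 with a dye term, with the 6 arrays of both stages alone and with spot medians, the last chosen after seeing the data. In XinWX from -1 to 1 DPA it was 0 with the 6 arrays alone, and from 0 to 1 DPA it was 0 with plain subtraction, quantile normalization or the 6 arrays alone and 2 with spot medians. With the replicate number as a block 6 were called in XinWX from -1 to 1 DPA and 3 from 0 to 1 DPA, where the numbers do not pair the samples, and the block changed no count between -1 and 0 DPA. Leaving out 1 array gave 4 to 8 calls in XinFLM from -1 to 1 DPA, 0 to 4 from -1 to 0 DPA and 1 to 7 from 0 to 1 DPA, and in XinWX 0 to 9, 0 to 0 and 0 to 9. The cause of these shifts was not tested. Depth is limited by the weaker line, which was under 400 units on 72 of 441 spots.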
